A study of Homo sapiens with 2 samples.

Results

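Splicing factor genes of 5 classes were examined in Seg-1 cells 72 hours after transfection with FGF-AS siRNA, against Seg-1 cells given negative control siRNA for the same time. The members were all probe sets annotated to exactly 1 gene symbol that begins with SRSF, HNRNP, SNRP, SF3A or SF3B, with 1 pseudogene probe set left out. These were 157 of 54675 probe sets, and 155 of them belonged to 50 protein-coding genes. The other 2 belonged to HNRNPD-DT and SNRPF-DT, noncoding RNAs that start beside HNRNPD and SNRPF and run the other way. They share the letters of the symbol but encode no splicing factor, so they are given apart. By class there were 10 SRSF genes (43 probe sets), 19 HNRNP genes (72), 12 SNRP genes (20), 3 SF3A genes (7) and 6 SF3B genes (13).

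Seg-1 is an adherent line that was once taken for esophageal adenocarcinoma and that the labels' protocols equate with the lung line H460. Each group held 1 Affymetrix U133 Plus 2.0 array. FGF-AS is the antisense RNA of the FGF2 locus, transcribed from NUDT6, and the control siRNA has no known target. Both cultures carried siRNA at a final concentration somewhere between 25 and 200 nM, and neither group held untransfected cells. With 1 array in each group no difference has a replicate check, no p-value is given, and all values describe these 2 arrays.

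Introns are removed by the spliceosome, which is built from small nuclear ribonucleoprotein particles (snRNPs). Each of the U1, U2, U4 and U5 particles holds a small RNA inside a ring of Sm proteins, named SNRP, and the SF3A and SF3B complexes join the U2 particle to recognise the branch site. SR proteins (SRSF) bind exons and promote the use of nearby splice sites, whereas many hnRNP proteins (HNRNP) bind silencer sequences and oppose it. Several SR and hnRNP genes are known to make alternative transcripts with exons that lead to RNA decay, so probe sets at different places in such a gene need not read the same RNA.

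Values are the deposited probe set signals on a linear scale. The log2 ratio was taken as FGF-AS siRNA over control siRNA after adding an offset of 6.1 to each signal, so a positive value means a higher signal with FGF-AS siRNA. Each gene was represented by its brightest probe set, and a probe set was called measured when the mean of both arrays was at least 23.9. A stricter minimum of 145 was used as a check. The target of the siRNA read 104.5 with FGF-AS siRNA and 376.9 with control siRNA on the brighter NUDT6 probe set (230329_s_at), a log2 ratio of -1.79, and 77.8 against 267 on the other (220183_s_at). Median signals were 23.1 on the FGF-AS siRNA array and 25.5 on the control array. Of 6 epithelial markers 5 were measured. KRT18 (9327.2 with FGF-AS siRNA and 10152.5 with control siRNA) and KRT8 (3780.9 and 3475.7) were bright. KRT19 (311.6 and 316.5), KRT7 (254 and 206.1) and EPCAM (43.8 and 34) were far lower, and CDH1 lay under the minimum (18.4 and 0.9). Of the lung epithelium markers, 4 of 10 were measured, all at signals of 111 or less. Of these, ABCA3 (87.4 with FGF-AS siRNA and 23.5 with control siRNA), SFTPC (59.1 and 14.7) and NAPSA (44 and 31.9) were higher with FGF-AS siRNA and SFTPB (98 and 110.8) was lower. NKX2-1, the defining lung transcription factor, lay under the minimum (11.8 and 24.9). Of the other marker genes with a single-gene probe set, none of 4 for squamous epithelium was measured, 3 of 7 for fibroblasts were, and 3 of 5 for leukocytes were, with PTPRC (CD45) under the minimum at 19 and 0.5. The summed signal of the lung list was 326.1 with FGF-AS siRNA and 250.7 with control siRNA, that of the fibroblast list 346.9 and 561.1, and that of the leukocyte list 141 and 112.9; their part in the results below was not tested. A signal averages over a culture, so a different share of cells and a different amount of RNA per cell cannot be told apart.

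Most splicing factor genes read slightly higher with FGF-AS siRNA, by far less than 1.5-fold. Of the 50 genes, 48 were measured, and all 48 also reached the stricter minimum. The exceptions were SNRPN (10.7 with FGF-AS siRNA and 0.9 with control siRNA on its only single-symbol probe set) and SRSF12 (13.9 and 14.1 on its brightest). Among the 48, 36 had a log2 ratio above 0, where 48.1% of all 12352 measured genes and 49.4% of the 7719 genes at the stricter minimum did. Their median log2 ratio was 0.16, or 1.11-fold, with an SD across genes of 0.22. Over all measured genes the median was -0.02 (SD 0.48), and over those at the stricter minimum it was -0.0047 (SD 0.38). One member, HNRNPUL2, was at least 1.5-fold higher (1 of 48), against 7.97% of all measured genes and 5.75% of those at the stricter minimum. No member reached 1.5-fold lower on its brightest probe set, against 9.53% of all measured genes and again 5.75% at the stricter minimum. No member passed 2-fold in either direction, which 2.05% of all measured genes did as higher and 2.72% as lower. The lead of the members over all genes depended on the scaling: it was 0.17 in log2 ratio as deposited and under median centring, and 0.07 under quantile normalization of the arrays.

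**Figure D1:**
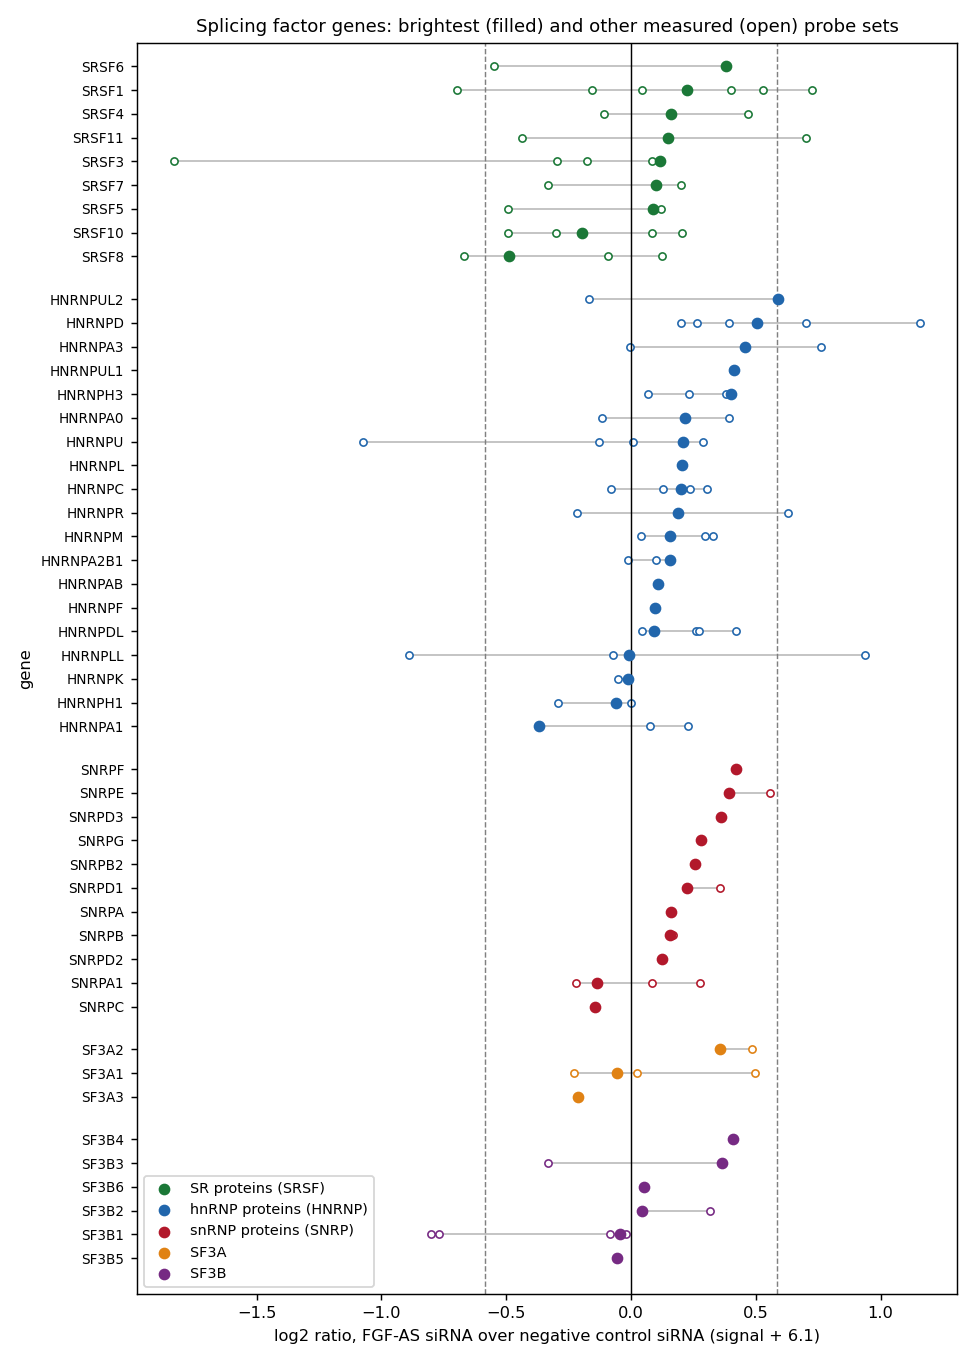
Log2 ratio of signal, FGF-AS siRNA over negative control siRNA (1 array each), for the 48 measured splicing factor genes, sorted within class. Filled points are the brightest probe set of a gene, open points its other measured probe sets, grey lines their range, and dashed lines mark 1.5-fold; most filled points lie right of 0, and open points reach from -1.83 (SRSF3) to 1.16 (HNRNPD).

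The snRNP proteins had the highest median of the 5 classes on brightest probe sets, although without the _s_at and _x_at probe sets HNRNP genes had 0.216 and SNRP genes 0.214. Their probe sets also lay closest together, over only 4 genes with several. Of 11 measured SNRP genes, 9 were above 0, and the median log2 ratio was 0.22 (1.17-fold, SD across genes 0.19). The Sm ring encircles the snRNA of most spliceosomal snRNPs. Of its 8 genes 7 were measured, and all 7 were above 0, beside 48.1% of all measured genes. Their median was 0.28 (1.21-fold), with a range from 0.13 to 0.42. SNRPN, the other ring gene, was under the minimum on its only single-symbol probe set, so no direction is given for it. Probe sets annotated to several symbols, described below, were used for no ring gene. SNRPF, the Sm F protein, read 4537.2 with FGF-AS siRNA and 3392.1 with control siRNA, a log2 ratio of 0.42. SNRPE, the Sm E protein, read 6395.2 and 4871.9 on its brightest probe set (0.39) and 475.2 and 320.8 on its second (0.56). SNRPD3, the Sm D3 protein, read 3289.5 and 2559.4 (0.36). On their brightest probe sets these 3 were between 1.28-fold (SNRPD3) and 1.34-fold (SNRPF) higher with FGF-AS siRNA. SNRPG, the Sm G protein, read 7295.7 with FGF-AS siRNA and 6005 with control siRNA (0.28), and SNRPD1, the Sm D1 protein, 3755.2 and 3213.9 (0.22, with 0.36 on its second probe set). SNRPB, which encodes the B and B' proteins of the ring, gave 0.16 and 0.17 on its 2 probe sets (9947 against 8928.7, and 6142.1 against 5458.3), and SNRPD2, the Sm D2 protein, gave 0.13. All 10 measured single-symbol probe sets of these 7 genes were thus higher on the FGF-AS siRNA array, with log2 ratios from 0.13 to 0.56. In every setting tried all the ring genes measured in it on single-symbol probe sets stayed above 0.

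Proteins found on a single snRNP did not share one direction. SNRPB2, a U2 protein, read 4055.2 with FGF-AS siRNA and 3392.6 with control siRNA (0.26), and SNRPA, a U1 protein that binds a stem-loop of U1 RNA, read 1528.3 and 1367.7 (0.16). SNRPC, the U1 protein that helps to contact the 5' splice site, read 919.2 and 1015.7 (-0.14), the lowest of the class. SNRPA1, the U2 protein that partners SNRPB2, read 3410 and 3745.8 on its brightest probe set (-0.14), while its other 3 measured probe sets gave 0.28, 0.08 and -0.22. The median of these 4 genes was 0.01. The RefSeq table names 20 pseudogenes each for SNRPC and SNRPG and 11 for SNRPE, whose sequence a probe set may share, and their part in the signals was not tested.

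**Figure D2:**
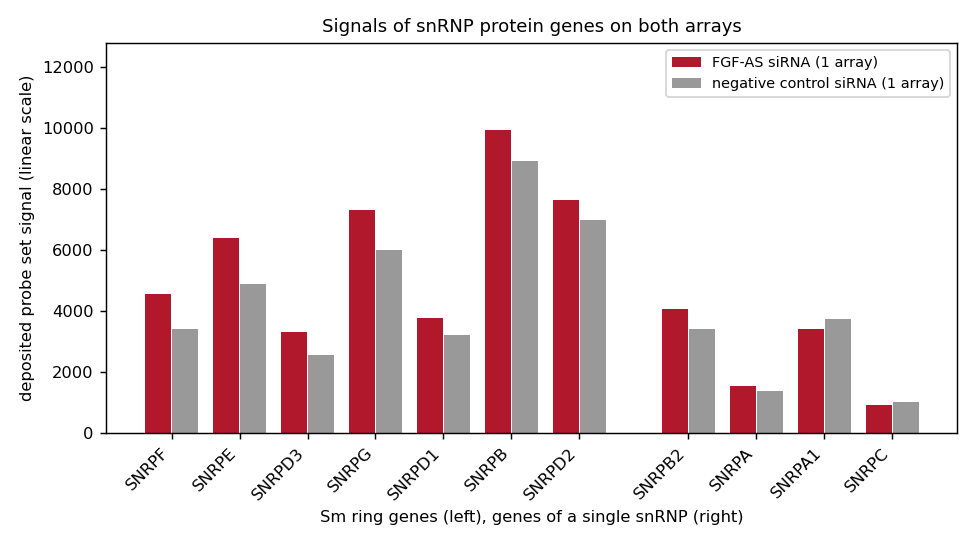
Deposited signal (linear scale) of the brightest probe set of 11 snRNP protein genes, with the FGF-AS siRNA array in red and the negative control siRNA array in grey, 1 array each and so without error bars. All 7 measured Sm ring genes on the left have the taller bar with FGF-AS siRNA, while SNRPA1 and SNRPC on the right have the shorter one. Bars of different genes come from different probes and are not to be compared in height.

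Promoter sequence is shown for the Sm ring gene with the highest ratio (SNRPF), for the only member past 1.5-fold (HNRNPUL2) and for the gene with the most measured probe sets among those with all of them on one side of 0 (HNRNPD). They are RefSeq windows of GRCh38.p14, 250 bases before to 50 bases after the gene's start, read 5′ to 3′ on the gene's strand. SNRPF lies on chr12:95858702-95859001 on the + strand, HNRNPUL2 on chr11:62727408-62727707 on the - strand and HNRNPD on chr4:82373942-82374241 on the - strand. Capitals mark the letters CCAAT (the NF-Y core) and CGGAAG (an ETS factor core), searched on both strands as ATTGG and CTTCCG too.
SNRPF: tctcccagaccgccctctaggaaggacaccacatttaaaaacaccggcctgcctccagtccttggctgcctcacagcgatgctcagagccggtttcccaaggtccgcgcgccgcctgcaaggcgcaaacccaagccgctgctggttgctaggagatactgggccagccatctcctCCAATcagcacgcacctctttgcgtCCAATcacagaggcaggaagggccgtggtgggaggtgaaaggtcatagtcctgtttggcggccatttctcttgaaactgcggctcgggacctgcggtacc
HNRNPUL2: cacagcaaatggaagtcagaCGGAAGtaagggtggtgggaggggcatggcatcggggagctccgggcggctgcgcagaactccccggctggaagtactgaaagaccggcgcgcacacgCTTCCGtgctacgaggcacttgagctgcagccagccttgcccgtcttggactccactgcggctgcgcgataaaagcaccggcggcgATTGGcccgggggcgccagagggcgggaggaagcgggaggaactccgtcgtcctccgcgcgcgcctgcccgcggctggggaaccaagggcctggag
HNRNPD: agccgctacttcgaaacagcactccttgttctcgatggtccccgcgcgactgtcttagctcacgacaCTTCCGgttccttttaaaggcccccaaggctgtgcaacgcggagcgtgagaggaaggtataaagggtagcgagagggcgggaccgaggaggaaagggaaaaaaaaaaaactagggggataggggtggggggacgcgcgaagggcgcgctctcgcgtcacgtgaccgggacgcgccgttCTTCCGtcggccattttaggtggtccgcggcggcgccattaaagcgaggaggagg
SNRPF held CCAAT at 2 places and CGGAAG at none, HNRNPUL2 held 1 and 2, and HNRNPD held 0 and 2. Promoters were listed for 47 of the 50 genes, 70 windows in all, since some genes have several. CGGAAG stood in 48.6% of these 70, against 29.1% of 14686 windows of measured genes and 19.5% of all 35116 windows. By class it stood in 11 of 19 SNRP windows, 10 of 29 HNRNP windows, 5 of 13 SRSF windows, 3 of 3 SF3A windows and 5 of 6 SF3B windows. CCAAT stood in 38.6% of the members' windows, against 35.0% of those of measured genes, and by class in 5 of 19 SNRP windows, 18 of 29 HNRNP windows, 3 of 13 SRSF windows, 0 of 3 SF3A windows and 1 of 6 SF3B windows. The search was made with the ratios known, windows of one gene can overlap, and a match is a run of letters and not a bound site.

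Among hnRNP genes, 15 of 19 were above 0, with a median log2 ratio of 0.19 (1.14-fold, SD across genes 0.22). HNRNPUL2, a relative of the nuclear scaffold protein hnRNP U, read 481.5 with FGF-AS siRNA and 318.1 with control siRNA on its brightest probe set, a log2 ratio of 0.59. Its second probe set went the other way, at 97 and 109.9 (-0.17). The ratio of HNRNPUL2 was therefore at the 1.5-fold limit on 1 of 2 probe sets. HNRNPUL1, its closest relative in the family, was higher on both probe sets by the same amount, at 999.1 against 749.2 and 588.7 against 442.5 (0.41 each).

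HNRNPD, also called AUF1, a protein that binds AU-rich elements and promotes decay of the mRNAs that carry them, was above 0 on all 6 of its measured probe sets. The 3 bright ones read 4604.1, 3381.1 and 3274.1 with FGF-AS siRNA, against 3244.9, 2817.4 and 2494.1 with control siRNA, log2 ratios of 0.50, 0.26 and 0.39. The dimmer ones gave 0.20, 1.16 and 0.70, of which the second (229129_at, 185.4 against 79.7) was the only member probe set at least 2-fold higher. The noncoding HNRNPD-DT beside it was dim and read 20.9 with FGF-AS siRNA and 40.7 with control siRNA, a log2 ratio of -0.79. SNRPF-DT was at the minimum on both arrays (23 and 25.6).

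Other hnRNP genes with several probe sets on one side of 0 were HNRNPH3, a relative of the G-run binding hnRNP H (4 of 4 above 0, from 0.07 to 0.40), HNRNPDL, a paralog of HNRNPD (5 of 5, from 0.04 to 0.42), HNRNPM, a splicing regulator with preference for GU-rich RNA (5 of 5, from 0.04 to 0.33), and HNRNPL, which binds CA repeats (2 of 2, both 0.20). HNRNPK, which binds C-rich RNA, was the exception below 0 on both probe sets, at -0.01 and -0.05. HNRNPA3, a member of the hnRNP A/B group, read 1559.3 and 1136.1 on its brightest probe set (0.45), 1097.4 and 644.4 on the second (0.76) and 420.9 and 421.5 on the third. HNRNPC, which binds uridine tracts, was above 0 on 5 of 6 measured probe sets, from -0.08 to 0.30. HNRNPR, which is close in sequence to SYNCRIP, gave 0.19, 0.63 and -0.22. HNRNPA2B1, HNRNPA0, HNRNPAB and HNRNPF lay between 0.10 and 0.22 on their brightest probe sets.

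HNRNPA1, a repressor that binds splicing silencers, was the lowest of its class on single-symbol probe sets. The brightest of these read 1724.8 with FGF-AS siRNA and 2226 with control siRNA (214280_x_at, -0.37). Its other 2 single-symbol probe sets were dim and gave 0.23 and 0.07. Probe sets annotated to several symbols were used for no gene and are given apart below. The RefSeq table names 75 pseudogenes of HNRNPA1 and 17 of HNRNPA3, and a probe set ending in _x_at holds probes that can match several transcripts, so the signal of HNRNPA1 is uncertain. HNRNPH1, which binds G runs, gave -0.06, 0.0010 and -0.29 on its 3 measured probe sets, in order of signal.

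HNRNPLL and HNRNPU had probe sets far apart. HNRNPLL, known for switching CD45 exons in lymphocytes, read 879.1 with FGF-AS siRNA and 883.4 with control siRNA on its brightest probe set (-0.01). On a dimmer one (225385_s_at) it read 194.7 and 98.9 (0.94), and on another dim one (1554453_at) 36.5 and 72.8 (-0.89). One gene thus gave 1.5-fold differences in both directions and none on the probe set with most signal. HNRNPU, a nuclear matrix protein that binds RNA and chromatin, read 5389.1 and 4664.1 on its brightest probe set (0.21), and its other 4 gave -0.13, 0.01, -1.07 and 0.29. The outlying value came from 216855_s_at, at 90 with FGF-AS siRNA and 196.2 with control siRNA.

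Most SR protein genes were above 0 on their brightest probe sets, but none was above 0 on all its measured probe sets. Of 37 measured SRSF probe sets, 21 were above 0, with a median log2 ratio of 0.09. Of 9 measured SRSF genes, 7 were above 0, with a median log2 ratio of 0.12 (1.08-fold, SD across genes 0.26) and none past 1.5-fold. When the mean over all measured probe sets of a gene was used instead of the brightest, the median turned to -0.08. SRSF6, a regulator that binds exonic enhancers, was the highest at 1443.3 with FGF-AS siRNA and 1106.3 with control siRNA (0.38), and its second probe set gave 66.3 and 99.8 (-0.55). SRSF8, a close paralog of SRSF2, was the lowest at 871.3 and 1226.3 (-0.49). Its other probe sets gave -0.67, -0.09 and 0.12, so 3 of 4 were below 0. SRSF10, which represses splicing when it loses its phosphates, was the other gene below 0 (-0.20), with 3 of 5 probe sets below 0 between -0.49 and 0.21.

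SRSF1, the founding SR protein and also a factor in translation and nuclear export, had 8 measured probe sets, 6 of them above 0. The brightest (211784_s_at) read 4768.9 with FGF-AS siRNA and 4084 with control siRNA, a log2 ratio of 0.22. The next brightest (201742_x_at) read 1563.3 and 2539.1, or -0.70, and 226419_s_at read 237.5 and 141.2, or 0.73. These opposite values, each past 1.5-fold, both came from probe sets above the stricter minimum. No other member gene had this at that signal level.

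SRSF3, the smallest SR protein, gave 0.12 and 0.08 on its brightest pair of probe sets (4518.9 against 4168, and 3844.9 against 3626.3) and -0.18 on the third. Its dim probe set 232392_at read 18.2 with FGF-AS siRNA and 80.3 with control siRNA, a log2 ratio of -1.83, the lowest of all measured members. SRSF11, a nuclear SR protein also known as p54, gave 0.15 on its brightest probe set (2753.7 and 2486.1), 0.70 on the second (205.4 and 123.9) and -0.44 on the third (44.6 and 62.6). SRSF4, SRSF5 and SRSF7, which all bind exonic enhancers, lay at 0.16, 0.09 and 0.10 on their brightest probe sets, and each had at least 1 measured probe set on the other side of 0.

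The SF3A and SF3B complexes showed no common direction. SF3A2, the counterpart of Prp11 in budding yeast, was above 0 on both probe sets, at 357.7 with FGF-AS siRNA and 277.7 with control siRNA (0.36) and at 234.7 and 166.1 (0.48). SF3A3, the counterpart of yeast Prp9, read 573.7 and 665 (-0.21), and SF3A1, the counterpart of yeast Prp21, read 1046.1 and 1089.1 (-0.06), with 0.03, 0.50 and -0.23 on its other probe sets. The median of the 3 genes was -0.06.

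SF3B1, the scaffold of SF3B that clasps the branch site helix, was below 0 on all 5 probe sets. The 2 bright ones read 3313.8 and 2897.8 with FGF-AS siRNA, against 3415.2 and 2934.9 with control siRNA (-0.04 and -0.02). The 2 of middle signal read 515.8 and 357.1 with FGF-AS siRNA, against 903.1 and 613.1 with control siRNA, log2 ratios of -0.80 and -0.77. The last gave -0.08. Both middle probe sets were thus past 1.5-fold lower, and the brightest pair was nearly equal between arrays. SF3B4, a subunit that contacts RNA upstream of the branch site, read 1654.2 with FGF-AS siRNA and 1245.9 with control siRNA (0.41). SF3B3, a large propeller protein, read 962.8 and 746.9 (0.36) and, on its second probe set, 168.9 and 214.1 (-0.33). SF3B2, the partner of SF3B4, stood at 0.05 (1239.3 and 1201), SF3B6, the small subunit near the branch site adenosine, at 0.05 (3634.3 and 3507.9), and SF3B5, another small subunit, at -0.06 (2987.4 and 3110.4). The median of the 6 SF3B genes was 0.05.

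Agreement between probe sets of one gene was the only error these arrays offer, and it differed by class. Over 35 member genes with at least 2 measured probe sets (123 probe sets), the pooled SD of a log2 ratio within a gene was 0.38, against 0.49 over 6155 genes of the whole array. Among probe sets at the stricter minimum it was 0.28 for members (30 genes) and 0.36 for all genes (3050), and among dimmer ones 0.55 (8 genes) and 0.58 (2365). By class the SD was 0.48 for SRSF (9 genes), 0.34 for HNRNP (17), 0.17 for SNRP (4), 0.27 for SF3A (2) and 0.39 for SF3B (3). The classes were not compared at like signal, so class and the share of dim probe sets cannot be told apart. The SD covers neither differences between cultures nor between hybridisations.

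All measured probe sets lay on one side of 0 in 13 of the 35 genes (37.1%), 11 of them above, against 49.1% of all genes with at least 2. The members had 3.51 measured probe sets a gene, against 2.77 for all genes. Among genes with at least 3 the shares were 20.8% of 24 member genes and 35.9% of 2824 genes. By class the count was 0 of 9 for SRSF, 7 of 17 for HNRNP, 3 of 4 for SNRP, 1 of 2 for SF3A and 2 of 3 for SF3B. In the same order these genes had 4.11, 3.59, 2.5, 3 and 3 measured probe sets each on average. The classes were not compared at like number of probe sets. The probe sets spanned at least 1 in log2 ratio in 5 genes (14.3%), SRSF3, HNRNPLL, SRSF1, HNRNPU and SRSF11, against 20.8% of all genes with at least 2. SRSF6 and HNRNPD lay just under that span, at 0.93 and 0.96.

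By probe set, 8 of 136 measured member probe sets were at least 1.5-fold higher (5.88%), against 7.54% of all measured probe sets with 1 symbol. At least 1.5-fold lower were 7 (5.15%), against 15.1%. These shares are not matched for signal, since 107 of the 136 reached the stricter minimum. Of those 107, 5.61% were higher and 3.74% lower, and of the 29 dimmer ones 6.90% and 10.3%. All probe sets were not counted at that minimum, so a difference from members at like signal is not given. Of the 8 higher ones 6 belonged to hnRNP genes (HNRNPD with 2, HNRNPLL, HNRNPA3, HNRNPR and HNRNPUL2) and 2 to SR genes (SRSF1 and SRSF11). Of the 7 lower ones 3 belonged to SR genes (SRSF3, SRSF1 and SRSF8), 2 to SF3B1 and 2 to hnRNP genes (HNRNPU and HNRNPLL). None belonged to a SNRP or SF3A gene. No gene had all of its several measured probe sets past 1.5-fold in one direction. Another 19 of the 155 probe sets lay under the minimum, with signals of at most 38.2.

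**Figure D3:**
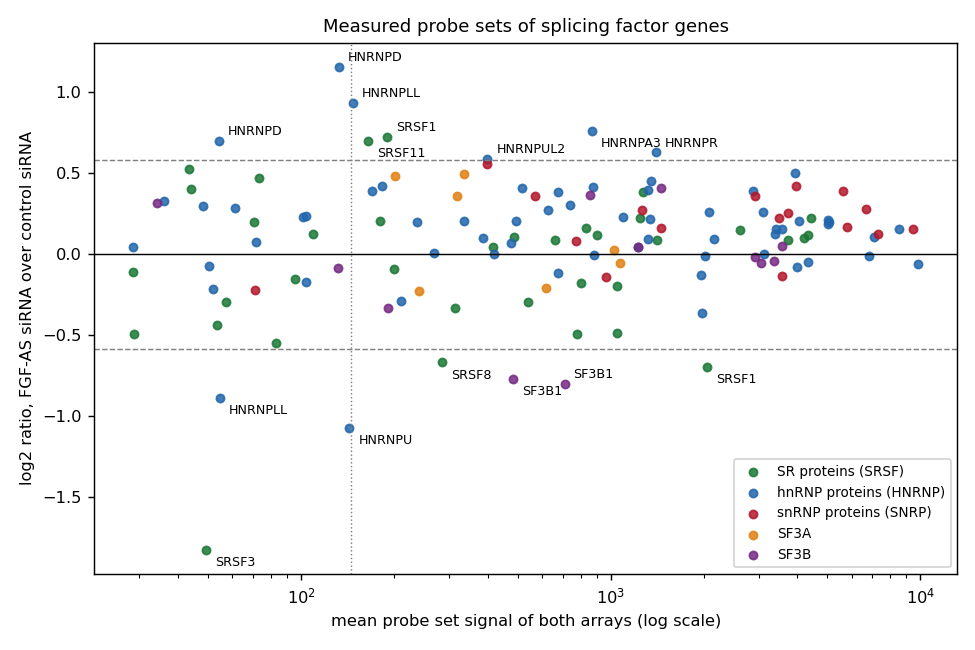
Log2 ratio, FGF-AS siRNA over negative control siRNA, against the mean signal of both arrays (log scale) for the 136 measured probe sets of splicing factor genes, coloured by class. Dashed lines mark 1.5-fold, the dotted line marks the stricter minimum of 145, and labelled points are the 8 probe sets past 1.5-fold higher and the 7 past 1.5-fold lower.

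A further 25 probe sets were annotated to several symbols of which at least 1 has these prefixes, and they were given no gene name. They include every probe set annotated to SRSF2, SRSF9 and HNRNPH2, so these genes are not described. Of these, 20 were measured, with a median log2 ratio of 0.03, a range from -1.38 to 0.68 and 12 above 0.

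Other genes of the splicing machinery were described from 9 lists, 145 of whose 158 genes were measured. Together 93 of the 145 were above 0, with a median log2 ratio of 0.11. Over all measured genes 48.1% were above 0, a share to set beside each list count below too. Past 1.5-fold higher were 11 of 145, beside 7.97% of all measured genes, and past 1.5-fold lower 2 of 145, beside 9.53%. SR-related proteins, which carry arginine-serine repeats without being classical SR proteins, had 15 of 16 above 0, the highest share of the 9 lists, and a median of 0.17, which was 0.011 with the mean over probe sets. SCAF1, which binds the RNA polymerase tail, was furthest from 0 in that list at 144.2 with FGF-AS siRNA and 74.1 with control siRNA (0.91). Of 15 genes for branch site and 3' splice site recognition, 13 were above 0 with a median of 0.15, which was 0.023 with the mean over probe sets and 0.06 without probe sets of the _s_at and _x_at kinds. RBM17, which competes for 3' splice site factors, read 988.4 and 637.8 (0.63), gave 0.77 and 0.50 on 2 further probe sets and -0.66 on a dim one. The SR protein kinases and importins had 7 of 9 above 0 and a median of 0.26, led by CLK2, a kinase of SR proteins, at 477.1 and 314.6 (0.59). That median turned to -0.05 with the mean over probe sets. TNPO1, an importin of this list, was below 0 on all its measured probe sets, from -0.58 to -0.33. Its brightest read 5853.6 with FGF-AS siRNA and 7713.8 with control siRNA (-0.40).

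Lists that act later or assemble snRNPs lay near 0. Of 23 Prp19 complex and catalytic step genes, 11 were above 0 (median -0.03). CDC40, a factor of the second splicing step, was furthest from 0 at 393.3 with FGF-AS siRNA and 535.9 with control siRNA (-0.44, with -1.05 on its other probe set). The SMN complex and Sm ring assembly list, whose proteins load the Sm ring onto snRNA, had 7 of 15 above 0 and a median of -0.03, with GEMIN8 at 127.7 and 171.5 (-0.41) and below 0 on all 3 probe sets. The LSm proteins are relatives of the Sm proteins, and many of them form rings on U6 RNA or in mRNA decay. Their list had 4 of 10 above 0 and a median of -0.04. LSM7 read 2975.6 with FGF-AS siRNA and 1520.9 with control siRNA (0.97) on its single probe set. LSM11 was below 0 on all its measured probe sets, from -1.52 to -0.59, with 251.1 and 443.5 on its brightest (-0.81). The Sm ring genes, their assembly factors and the LSm genes thus had medians of 0.28, -0.03 and -0.04, differences that could not be tested.

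The list of snRNP proteins named mostly SNRNP or PRPF had 15 of 23 above 0 and a median of 0.05. That median was -0.01 without the _s_at and _x_at probe sets and 0.16 under quantile normalization. SNRNP27, a tri-snRNP protein, was 1.93-fold higher at 1161.2 with FGF-AS siRNA and 597.6 with control siRNA (0.95), and its second probe set gave 0.85. The exon junction complex list had 4 of 7 above 0 and a median of 0.09 (0.02 without the _s_at and _x_at probe sets, 0.21 with the mean over probe sets), with RNPS1, an SR-like activator, at 2129.4 and 1333 (0.67, and 0.27 on its second probe set). Other alternative splicing regulators had 17 of 27 above 0 and a median of 0.14, which moved to -0.0054 with the mean over probe sets. PTBP3, a relative of the polypyrimidine tract binding protein, was 2.60-fold higher on its brightest probe set (1502.4 and 574.7, log2 ratio 1.38), the only gene of these lists past 2-fold, and below 0 on its other 4 (from -0.74 to -0.32).

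**Figure D4:**
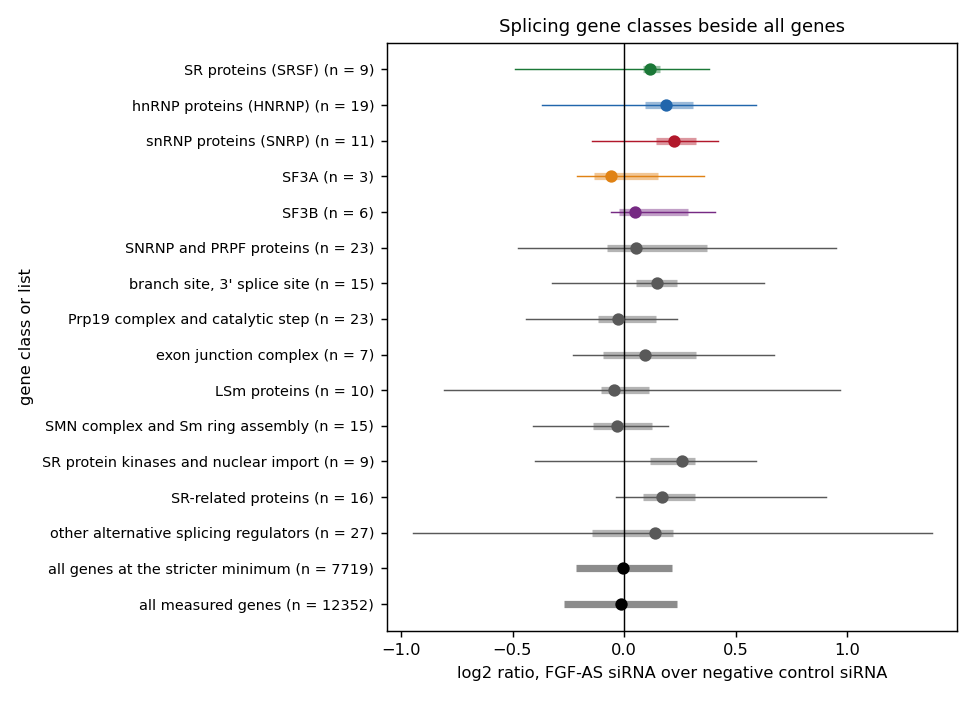
Log2 ratios, FGF-AS siRNA over negative control siRNA (1 array each), of the 5 splicing factor classes (coloured), 9 lists of other splicing genes (grey) and all genes (black), with n the number of measured genes. Points are medians, thick bars the span between quartiles and thin lines the full range, which is not drawn for all genes; medians run from -0.06 (SF3A) to 0.26 (SR protein kinases and nuclear import), beside -0.02 for all measured genes.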

How the data were processed

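RNA of 2 Seg-1 cultures, 1 per siRNA, was measured on Affymetrix U133 Plus 2.0 arrays. The authors deposited 1 intensity per probe set and array, not log-transformed; per the submitters' processing notes GCOS and MAS5 were used, with no version, role or scaling target. Per the labels' protocols, RNA was primed with oligo-dT and transcribed into biotin-labelled cRNA. Detection calls and probe-level intensities were not used here, so a dim signal cannot be told from background; the number of arrays limits the precision.

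Ratios were computed with Python 3.11.15, pandas 2.3.3 and numpy 2.4.6. The offset, 6.1, equals the 25th percentile of signals without array controls, it understates the change of dim genes, and no further scaling was applied. The minimum of 23.9 and the stricter one of 145 are the median and the 75th percentile of mean signal. Of 54613 probe sets other than controls, 41091 had 1 symbol; all 155 member probe sets were found by gene identifier in a RefSeq table (GRCh38.p14) with an unchanged symbol. No test was made, with 1 array per group. The calculation was checked on simulated data.

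Named genes were NUDT6, the highest and lowest gene of each class, every gene past 1.5-fold on its brightest probe set or on all its probe sets, every gene whose probe sets span at least 1 in log2 ratio, all SF3A and SF3B genes, and the gene furthest from 0 in each other list. The remaining members were named to cover each class, with their values in view. TNPO1 and LSM11 of the other lists were likewise named with their values in view. The members, lists and rules were chosen with earlier results of these data known. Alternatives were other offsets, median centring, quantile normalization, other minimums, leaving out probe sets ending in _s_at or _x_at, and the mean over probe sets.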

Additional observations from a re-analysis of the deposited data

How the results depend on the processing

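The median log2 ratio stayed above 0 in the 8 alternatives for SNRP genes (0.21 to 0.29), HNRNP genes (0.17 to 0.26) and all members together (0.13 to 0.22), the highest of these under median centring (0.22). That of SRSF genes was -0.083 with the mean over probe sets, and those of SF3A (-0.06 to 0.15) and SF3B (-0.02 to 0.12) crossed 0. The number of members above 0 was 42 of 48 under median centring (56.3% of all genes in that setting), 37 of 48 under quantile normalization (56.4%), 34 of 48 with the mean over probe sets (43.2%) and 27 of 38 without the _s_at and _x_at probe sets (48.2%). Members at least 1.5-fold higher numbered 0 with the offset at the median signal (5.76% of all genes) and with the mean over probe sets (6.61%), 2 of 50 with no minimum (HNRNPUL2 and SNRPN, 12.7%) and 2 of 38 without the _s_at and _x_at probe sets (HNRNPUL2 and SRSF11, 8.68%); members at least 1.5-fold lower numbered 1 in that last setting (HNRNPLL, 10.7%). The SD between probe sets was 0.33 with the offset at the median signal, 0.28 at the stricter minimum and 0.46 with no minimum. Among lists of other splicing genes, whose alternatives were added after seeing the data, as were those of the count above 0, the median of SNRNP and PRPF proteins was 0.16 under quantile normalization, and that of SR-related proteins 0.011 with the mean over probe sets. The median of SR protein kinases and importins turned to -0.11 without the _s_at and _x_at probe sets and to -0.048 with the mean over probe sets, and that of other alternative splicing regulators to -0.0054 with that mean; the cause was not tested. No paired analysis was possible because each group holds 1 array, and for the same reason no replicate could be left out.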
